A study of Mus musculus with 8 samples.

Results

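The genes described here are 9 genes of cellular iron handling, chosen by name: transferrin (Trf), the transferrin receptor (Tfrc), the ferritin heavy and light chains (Fth1, Ftl1), the iron regulatory proteins (Aco1, Ireb2), the divalent metal transporter (Slc11a2), ferroportin (Slc40a1) and hephaestin (Heph). All 9 had CpG sites in the hydroxymethylation data, with 265 of the 1497075 sites that had a read, and 7 of them were among the 11315 genes listed in the RNA data; Slc40a1 and Heph were not listed there. On GRCm38, RefSeq places Trf at chr9:103208876-103230286 (minus strand), Tfrc at chr16:32608896-32632794 (plus), Fth1 at chr19:9980600-9985111 (plus), Ftl1 at chr7:45457944-45459886 (minus) and Aco1 at chr4:40143265-40199009 (plus). Ireb2 lies at chr9:54862658-54912534 (plus), Slc11a2 at chr15:100387898-100424209 (minus), Slc40a1 at chr1:45908070-45926532 (minus) and Heph at chrX:96455436-96574485 (plus).

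Oligodendrocytes are known as the cells of the brain that stain most strongly for iron, which serves as a cofactor in lipid and cholesterol synthesis for myelin. Transferrin carries iron in plasma and interstitial fluid and is taken up through its receptor; the divalent metal transporter moves the iron out of the endosome, ferritin shells of heavy and light chains store it, and ferroportin exports it with the help of the ferroxidase hephaestin. When iron is scarce, the iron regulatory proteins bind short RNA hairpins called iron responsive elements: at the 5′ end of ferritin and ferroportin transcripts this blocks translation, and at the 3′ end of the transferrin receptor transcript it protects the RNA from decay.

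RNA-seq and reduced representation hydroxymethylation profiling (RRHP) were performed on cells from brains of 60-day-old C57BL/6 mice. Adult progenitors of oligodendrocytes (aOPC) were sorted by the GFP of a Pdgfra reporter, whose GFP is fused to a histone and driven by the Pdgfra gene, and adult oligodendrocytes (aOL) by the EGFP of a Plp reporter line; the labels give no treatment or deletion for either group. Each population had 2 RNA libraries and 2 RRHP libraries, numbered replicates 2 and 3; a replicate 1 was not used here. Groups follow the sample titles, since the labels conflict for aOL: the tissue field of its RRHP samples carries the Pdgfra reporter, and its RNA titles say pre-myelinating where the protocol says myelinating.

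The RNA libraries did not separate cleanly by the markers of their labels. A list of 10 mature oligodendrocyte genes had median log2 values of 17.77 and 17.20 in the aOPC libraries against 17.48 and 17.57 in the aOL libraries. Pdgfra itself, the gene of the reporter, was at 7.54 and 5.47 in aOPC and at 4.98 and 1.63 in aOL, and 4 of 10 listed progenitor markers were higher in aOL on average. The Y-linked gene Ddx3y was at 12.43 in aOPC replicate 2 and at most at 1.63 in the others. In RRHP, the Y chromosome held 0.555 and 0.479% of the counts in aOPC against 0.398 and 0.465% in aOL, without such a split. RRHP totals ran from 7113237 to 27057859 counts, the lowest in aOPC replicate 2, where CpG islands took 5.74% of the counts against 2.38 to 3.32% in the others. A level in RNA from sorted cells cannot tell fewer cells of a type from less RNA per cell.

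Matches to the iron responsive element in the members are shown first, since such RNA elements are known to regulate several of these genes. The search took the 6-base loop CAGTGN on the transcript strand, flanked by 5 bases on each side that pair with each other and preceded by an unpaired C, in the untranslated regions of GENCODE on GRCm38. Each element is printed as 30 bases, 5′ to 3′ on the transcript strand, with the loop in capitals.
Fth1 5′ UTR, chr19:9982732-9982761, plus strand: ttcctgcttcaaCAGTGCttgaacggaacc
Ftl1 5′ UTR, chr7:45459778-45459807, minus strand: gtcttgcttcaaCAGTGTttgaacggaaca
Slc40a1 5′ UTR, chr1:45925464-45925493, minus strand: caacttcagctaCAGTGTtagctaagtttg
Tfrc 3′ UTR, chr16:32631219-32631248, plus strand: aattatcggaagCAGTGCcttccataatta
Tfrc 3′ UTR, chr16:32631598-32631627, plus strand: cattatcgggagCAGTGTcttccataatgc
Tfrc 3′ UTR, chr16:32631663-32631692, plus strand: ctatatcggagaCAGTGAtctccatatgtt
Tfrc 3′ UTR, chr16:32631710-32631739, plus strand: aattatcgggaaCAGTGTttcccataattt

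The pattern was found in the 5′ untranslated region of 28 of 20873 genes (0.134%) and in the 3′ untranslated region of 127 of 21659 genes (0.586%). The pattern was not found in the untranslated regions of Trf, Aco1, Ireb2, Slc11a2 or Heph. An element with another loop or an imperfect stem falls outside this pattern. A gene without a match may therefore still carry an element, and a gene with matches may carry more. A match is a description of the sequence, and binding was not measured.

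Transferrin and the ferritin heavy chain stood at the very top of the RNA data in both populations, and no member passed the test between aOL and aOPC. Per kilobase of exon, Trf ranked 4, 4, 2 and 2 and Fth1 ranked 3, 3, 4 and 4 among the 10791 listed genes with a RefSeq exon length, in aOPC replicates 2 and 3 and aOL replicates 2 and 3. Of the 7 listed members, 0 were called by limma (an unadjusted p under 0.01 together with an adjusted p under 0.05), where 0.0808% of all 11133 tested genes were called. At an unadjusted p under 0.05 there were 2 members, Ireb2 higher and Fth1 lower in aOL, against 24.0% of all genes. The libraries of the groups did not overlap for 5 of the 7 (3 above and 2 below), where 61.8% of all genes did not overlap.

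**Figure D1:**
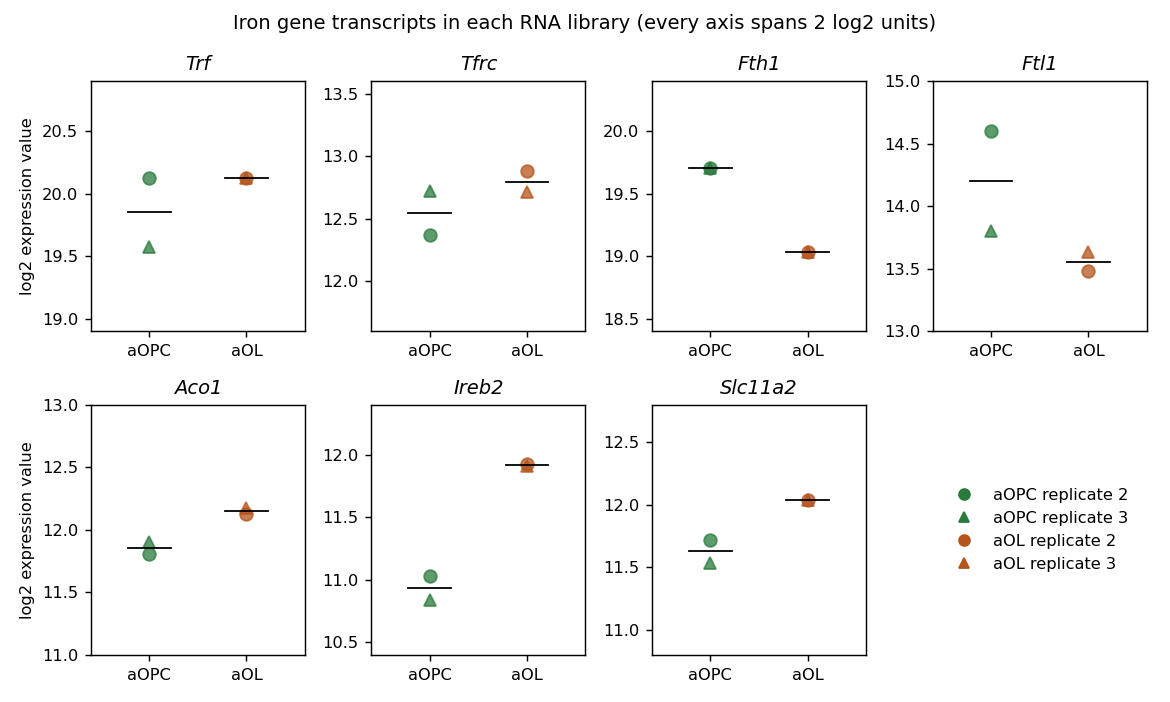
Deposited log2 expression values (vertical axis, spanning 2 log2 units in each panel) of the 7 listed members in the 2 aOPC and 2 aOL libraries; points are libraries and the horizontal bars are group means. Ireb2 sits between 10.83 and 11.03 in aOPC and between 11.91 and 11.93 in aOL, and the points of Fth1 coincide within each group.

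Among the genes of iron uptake, Trf, which encodes the iron carrier, was at log2 values of 20.13 and 19.58 in the aOPC libraries and at 20.13 in both aOL libraries. The aOPC replicate 2 library thus equalled the aOL libraries, and only aOPC replicate 3 was lower. The difference, aOL minus aOPC, was 0.28 on the log2 scale (SE 0.27, 95% interval −0.45 to 1.0015, limma adjusted p = 0.552). Values at the top ranks are set by rank alone on this scale, so the equal values mean an equal rank.

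Tfrc, the receptor that takes up loaded transferrin, was at 12.37 and 12.72 in aOPC and at 12.88 and 12.71 in aOL, with aOPC replicate 3 inside the range of aOL. Its log2 difference was 0.25 (SE 0.23, 95% interval −0.37 to 0.88, limma adjusted p = 0.529), and ran from 0.0757 without aOPC replicate 2 to 0.43 without aOPC replicate 3. Endothelial cells of the brain also carry this receptor, and 3 of 8 endothelial markers were listed, none at 0 and 2 of them higher in aOL, at a summed level of 9.65 and 9.52 on the log2 scale in aOPC against 9.96 and 10.34 in aOL. Cldn5, a tight junction gene of these cells, was at 0.333 and 1.80 in aOPC against 5.92 and 7.13 in aOL, Kdr at 9.07 and 9.36 against 9.73 and 10.07, and Abcb1a, with the lower mean in aOL, at 8.06 and 6.24 against 6.41 and 6.29. Vtn, the listed 1 of 5 pericyte markers, was at 4.96 and 7.09 against 5.99 and 9.74. Their part in the Tfrc values was not tested. Slc11a2, the endosomal iron transporter, was at 11.72 and 11.54 in aOPC and at 12.04 in both aOL libraries, which lay above aOPC. Its log2 difference of 0.41 (SE 0.19, 95% interval −0.12 to 0.94) did not pass the test (limma adjusted p = 0.278).

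Both ferritin chains had lower values in aOL than in aOPC in every library. Fth1, the heavy chain with the ferroxidase centre, was at 19.71 in both aOPC libraries, the third rank of all genes, and at 19.04 in both aOL libraries, rank 8. This is a fold of 0.629 and a log2 difference of −0.67 (SE 0.18, 95% interval −1.17 to −0.17, limma adjusted p = 0.164). The SD was 0 within each group, since the top 100 ranks hold exactly the same values in every library, and the SE of Fth1 therefore rests on the spread that limma takes from all genes.

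Ftl1, the light chain that helps the iron core form, was at 14.60 and 13.80 in aOPC and at 13.48 and 13.63 in aOL. The aOL libraries were the lower ones, but aOPC replicate 3 lay much nearer to them than to aOPC replicate 2. The log2 difference was −0.64 (SE 0.34, 95% interval −1.56 to 0.27, limma adjusted p = 0.312). RefSeq lists 3 light chain and 2 heavy chain pseudogenes by symbol, so the split of reads between the ferritin genes and their copies is uncertain. The red cell transcripts Hba-a1, Hbb-bs and Alas2 were highest in aOPC replicate 3 (12.95, 12.34 and 10.98) and lowest in aOPC replicate 2 (9.86, 8.90 and 7.53). The 5 listed of 6 choroid plexus and blood markers had a summed level, on the log2 scale, of 11.44 and 13.96 in aOPC against 12.68 and 12.85 in aOL. Microglia, cells rich in ferritin, had 10 of 11 markers listed, none of them at 0 and with Aif1 not listed, at summed levels of 12.50 and 11.92 in aOPC against 12.09 and 11.67 in aOL, with the groups overlapping. Of 8 astrocyte markers, all listed and none at 0, 2 were higher in aOL on average, with a median log2 difference of −0.68, while their summed level was 13.82 and 13.49 in aOPC against 13.43 and 13.63 in aOL. The part of any of these in the ferritin values, or in those of the other iron genes, was not tested.

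Of the iron regulatory proteins, Ireb2, which senses iron through its own degradation, showed the largest difference among the members. It was at 11.03 and 10.83 in aOPC and at 11.93 and 11.91 in aOL, so both aOL libraries lay above aOPC. The fold was 1.98 and the log2 difference 0.99 (SE 0.20, 95% interval 0.45 to 1.52), which did not pass the adjustment over all genes (limma adjusted p = 0.133), and 4.95% of the tested genes had a smaller p. Aco1, an aconitase that turns into an RNA binding protein when it loses its iron-sulphur cluster, was at 11.81 and 11.90 in aOPC and at 12.13 and 12.18 in aOL. Its libraries did not overlap either, with a log2 difference of 0.30 (SE 0.19, 95% interval −0.22 to 0.81, limma adjusted p = 0.384).

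The calls of Fth1, Ftl1 and Ireb2 depended on the aOPC libraries. Without aOPC replicate 2, Fth1 (log2 difference −0.67) and Ireb2 (1.085) were called; without aOPC replicate 3, Fth1 (−0.67), Ftl1 (−1.04) and Ireb2 (0.89) were called. In these fits the lone aOPC library is assumed to vary like the aOL libraries, and 3805 and 1974 genes in all were called instead of 9.

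Ordered by level per kilobase of exon, Fth1 and Trf were followed by Ftl1 at ranks 78 to 224. Tfrc came next at ranks 2146 to 2957, then Aco1 at 2824 to 3427, Slc11a2 at 4134 to 4893 and Ireb2 at 5039 to 6616. Fth1 and Trf changed places between the populations on this scale, at log2 values per kilobase of 19.11 and 18.91 in aOPC replicate 2 and of 18.44 and 18.91 in aOL replicate 2. The ranges of Tfrc and Aco1 overlapped across libraries, whereas within each library Tfrc was the higher.

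Transcripts whose values followed the members' pattern were common over only 4 libraries. The genes nearest to Trf were Smarca4, Nfx1 and Ppp1r37, at Euclidean distances of 0.00905, 0.0265 and 0.0307 over the 4 centred log2 values, and 314 genes lay within a distance of 0.2. Those nearest to Tfrc were Hmgcs1, Usb1 and Lrrc75a (distances 0.0288, 0.0346 and 0.0412), and those nearest to Fth1 were S100a16, Zfand1 and Pim3 (0.0115, 0.042 and 0.0436). Hmgcs1, which makes the cholesterol precursor HMG-CoA, was at 15.10 and 15.45 in aOPC and at 15.63 and 15.47 in aOL.

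The wider set of iron genes held more transcripts with lower values in aOL than with higher ones, although none passed the test. Of 64 further genes of iron uptake, storage, systemic regulation, mitochondrial iron use and haem metabolism, 46 were tested and 0 were called by limma, while 3 with higher and 9 with lower values in aOL had an unadjusted p under 0.05, a share near the 24.0% of all genes. Their groups did not overlap for 8 genes with higher and 22 with lower values in aOL, where 31.9% and 29.9% of all genes did so. The median log2 difference was −0.34, against 0.02 for all genes.

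**Figure D2:**
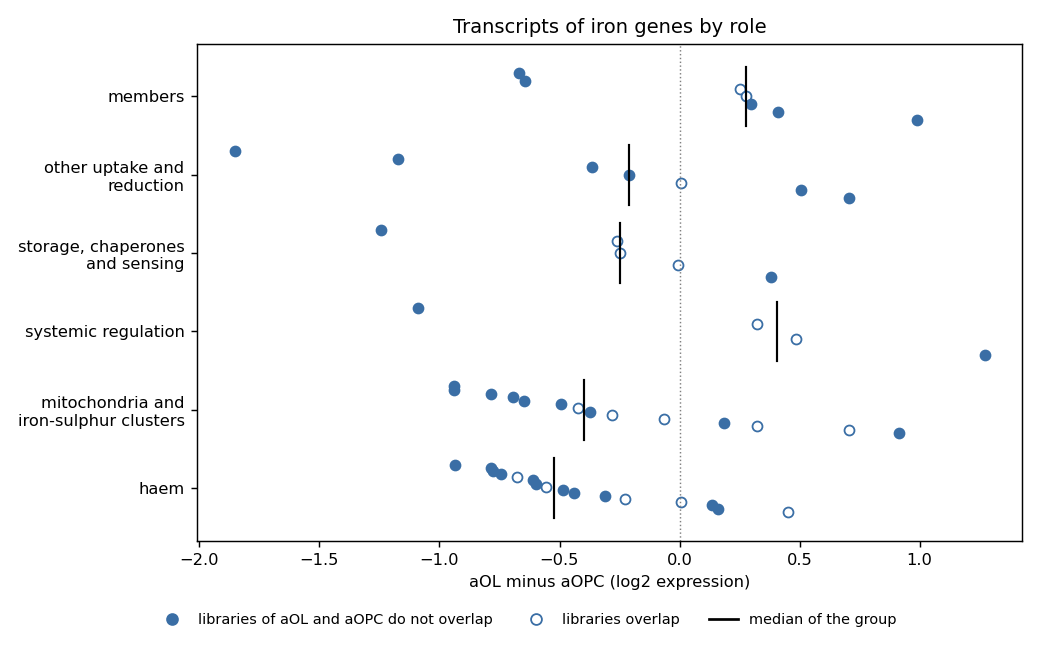
Log2 differences in RNA (aOL minus aOPC, horizontal axis) of the 7 listed members and of 46 further iron genes by role; filled points are genes whose aOL and aOPC libraries do not overlap, open points those that overlap, and the vertical bars are medians. The median of the members is 0.28 and that of the haem genes is −0.52.

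In haem metabolism, 9 of 16 tested genes lay lower in aOL without overlap and 2 lay higher, with a median log2 difference of −0.52; of all genes, 29.9% lay lower and 31.9% higher. Alad, an early enzyme of haem synthesis, had a difference of −0.93, Cpox, a later step, of −0.78, and the biliverdin reductase Blvra of −0.74 (limma adjusted p from 0.155 to 0.190). In mitochondrial iron use, 7 of 14 lay lower and 2 higher, beside the same shares, with the cluster assembly genes Bola3 and Hscb at −0.94 and −0.65 (limma adjusted p = 0.185 and 0.183).

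Of the other uptake genes, Hfe, which binds the transferrin receptor, was at 7.25 and 7.29 in aOPC and at 4.98 and 5.85 in aOL, a log2 difference of −1.85 (SE 0.36, limma adjusted p = 0.133). Lrp1, a receptor for the haem carrier hemopexin, had a difference of −1.17, and Exoc6, an exocyst subunit needed for transferrin recycling, one of 0.71 (limma adjusted p = 0.202 and 0.162). Among the chaperones, Pcbp2 had a difference of −1.24, with values of 10.98 and 11.49 in aOPC and of 10.002 and 9.975 in aOL (limma adjusted p = 0.134). Neo1, a co-receptor in the control of hepcidin, had one of 1.27 (limma adjusted p = 0.137).

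Hydroxymethylation was read by RRHP, in which glucosylated 5-hydroxymethylcytosine (5hmC) shields CCGG from cutting by MspI, so that shielded sites yield reads. The method sees only CCGG, and a site without reads may be unmarked or not sampled. All 1494474 sites that could be compared with the reference lay at a CCGG. Within the genes, reads were found at 73.3% of the CCGG of Trf, at 100% in Fth1 and Ftl1 and at 38.5% in Slc40a1; the median of 16814 genes was 66.7%.

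In counts over the gene body, Trf carried the most hydroxymethylation of the members and Fth1 the least, whereas both were among the most abundant transcripts. Over the gene body (exon and intron sites), Trf had 346 and 807 counts in aOPC against 794 and 1081 in aOL, over 30 sites. This was 48.6, 47.1, 49.9 and 39.95 CPM (counts scaled to the same library total), so only aOL replicate 3 stood lower. Fth1 had 12 and 15 counts in aOPC against 4 and 25 in aOL over 8 sites, at 1.69, 0.876, 0.251 and 0.924 CPM.

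Divided by the number of sites with a read, Trf had 1.55 CPM per site, more than 95.4% of the 18488 tested gene bodies. Fth1 and Ireb2 had 0.117 and 0.115, more than 2.16% and 2.06% of them. Among the 93 tested gene bodies of the 100 most abundant transcripts, the median percentile was 56.9 (quartiles 19.2 and 82.9), with 4 genes at or under the level of Fth1 and 6 at or over that of Trf, themselves included. Aco1 (0.762 CPM per site), Slc11a2 (0.607) and Slc40a1 (0.581) lay between the 47.6 and 64.1 percentiles, and Heph (0.369), Ftl1 (0.356) and Tfrc (0.356) between the 25.2 and 26.5 percentiles.

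**Figure D3:**
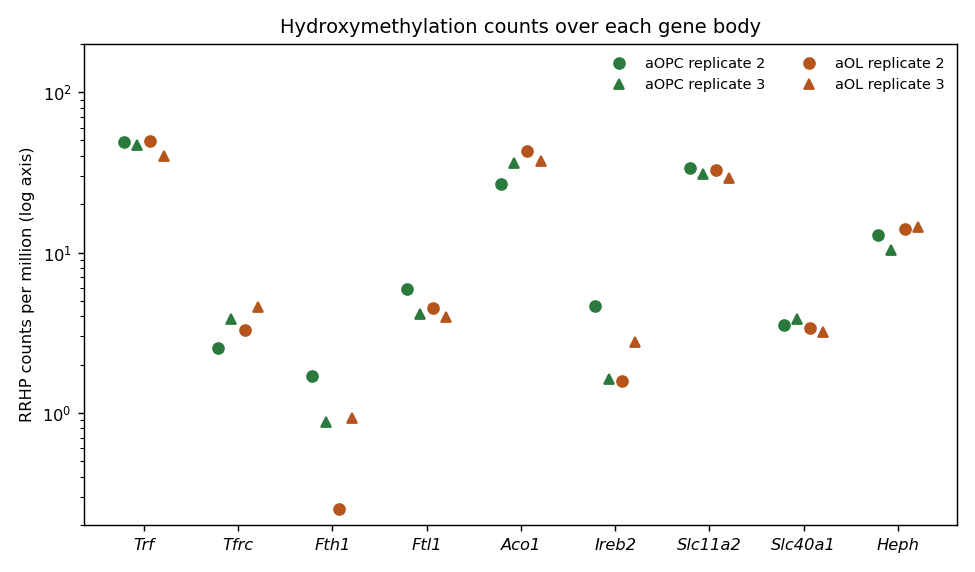
RRHP counts in CPM over the gene body (vertical axis, logarithmic) of the 9 members, with 1 point per library. Trf lies between 39.95 and 49.9 in every library and Fth1 between 0.251 and 1.69, and the aOPC and aOL points overlap for 6 of the 9 genes.

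No gene body of a member passed the test between aOL and aOPC. Of 9 members tested, 0 were called by edgeR (an adjusted p under 0.05), 0 by DESeq2 and 0 had an unadjusted edgeR p under 0.05, where 0.849% of all gene bodies were called and 7.30% had such a p. The groups did not overlap in CPM for 3 of 9 (Aco1 and Heph above, Slc40a1 below), where 38.8% of all gene bodies did not overlap. The median log2 fold change of the members was −0.105, against −0.0027 for all gene bodies. With the read totals of the study's methods as library sizes, the median of all gene bodies moved to 0.37, and the log2 fold changes of Trf (0.27), Ftl1 (0.17), Ireb2 (0.06), Slc11a2 (0.31) and Slc40a1 (0.16) were above 0 but below that median, so a direction given below holds relative to the median gene body.

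The intervals were narrowest where counts were high. The log2 fold change of Trf was −0.11 (SE 0.14, 95% interval −0.41 to 0.20) and that of Slc11a2, with 238 and 530 counts in aOPC against 518 and 792 in aOL, was −0.07 (SE 0.13, 95% interval −0.36 to 0.23). Their edgeR adjusted p-values were 0.859 and 0.905. Slc11a2 overlaps Gm5475 on the other strand.

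Aco1 had the smallest adjusted p of the 9 gene bodies, with 190 and 617 counts in aOPC against 689 and 1006 in aOL. In CPM these were 26.7, 36.0, 43.3 and 37.2, so the aOL libraries lay above aOPC, the nearest pair by a small margin. The log2 fold change was 0.32 (SE 0.16, 95% interval −0.04 to 0.68, edgeR adjusted p = 0.726). Without aOPC replicate 2 it was 0.13, and without aOPC replicate 3 it was 0.60 and Aco1 was called, together with 4246 gene bodies in all instead of 157.

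Heph had 92 and 178 counts in aOPC against 222 and 388 in aOL (12.9, 10.4, 13.9 and 14.3 CPM), with a log2 fold change of 0.29 (SE 0.18, edgeR adjusted p = 0.751), which ran from 0.15 without aOPC replicate 3 to 0.42 without aOPC replicate 2. It lies on the X chromosome, which held 2.84, 2.45, 2.70 and 3.13% of the counts of the 4 libraries, and overlaps Hsf3 on the other strand; the part of either was not tested. Slc40a1 had 25 and 66 counts in aOPC against 54 and 86 in aOL (3.51, 3.85, 3.39 and 3.18 CPM), with both aOL libraries just under aOPC and a log2 fold change of −0.185 (SE 0.375, edgeR adjusted p = 0.906).

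The remaining members had few counts and wide intervals. Tfrc had 18 and 66 counts in aOPC against 52 and 124 in aOL (log2 fold change 0.26, 95% interval −0.62 to 1.14). Ftl1 had 42, 71, 72 and 107 (−0.23, −0.98 to 0.52) and Ireb2 33, 28, 25 and 75 (−0.45, −1.73 to 0.84) in the same order. Fth1 had a log2 fold change of −0.98 (SE 0.78, 95% interval −2.70 to 0.74, edgeR adjusted p = 0.784), and its value ran from −2.27 without aOL replicate 3 to −0.42 without aOL replicate 2.

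The reads of Trf, Aco1, Slc11a2 and Heph lay mostly inside the gene and those of Fth1, Ftl1 and Ireb2 at the start. The authors' promoter column held 2.60 to 7.73% of the reads of Trf across libraries, 2.90 to 17.9% of those of Aco1 15.3 to 29.2% of those of Slc11a2 and 0 to 1.09% of those of Heph. It held 81.2 to 95% of those of Ireb2 and all of those of Fth1 and Ftl1, where the median of 15950 genes with at least 50 reads was 18.2%. Of the promoter sites, 7 of 8 in Fth1, 15 of 18 in Ftl1 and 17 of 19 in Ireb2 lay in CpG islands, and 0 of 11 in Trf.

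**Figure D4:**
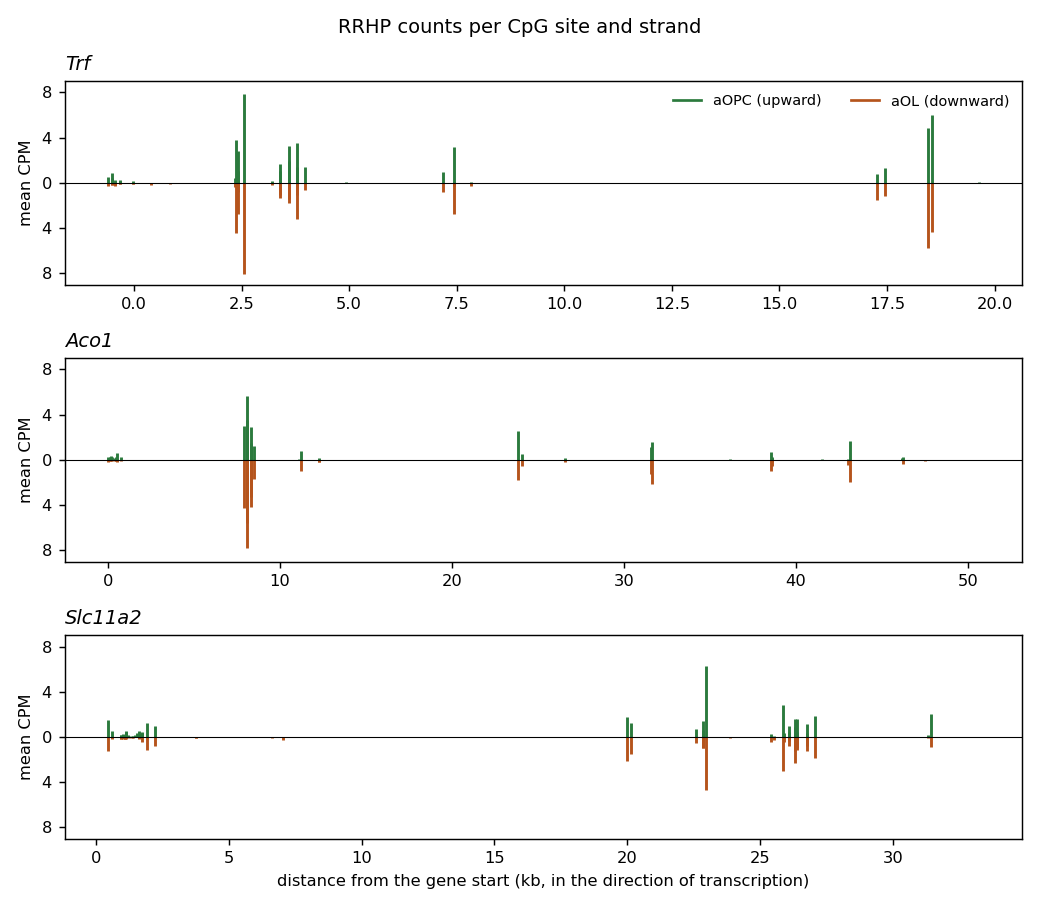
Mean RRHP counts in CPM of the 2 libraries of each population (aOPC drawn upward, aOL downward) at each CpG site and strand of Trf, Aco1 and Slc11a2 against the distance from the RefSeq gene start in kb. The most read sites lie 2561, 8107 and 22956 bases into these genes and are the same in both populations.

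Sequences around the most read sites are printed to show where in the genes the reads fell, 5′ to 3′ on the gene's strand with the CCGG in capitals (60 bases in introns and 30 in exons).
Trf intron 2, chr9:103227696-103227755: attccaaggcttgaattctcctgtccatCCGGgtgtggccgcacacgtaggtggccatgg
Trf coding exon 15, chr9:103211826-103211855: aagagaaggcagcCCGGgttaaggctgtac
Trf intron 15, chr9:103211710-103211769: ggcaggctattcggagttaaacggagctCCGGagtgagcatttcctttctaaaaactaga
Aco1 intron 1, chr4:40151342-40151401: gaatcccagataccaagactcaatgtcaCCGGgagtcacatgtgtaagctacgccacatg
Slc11a2 intron 13, chr15:100401224-100401283: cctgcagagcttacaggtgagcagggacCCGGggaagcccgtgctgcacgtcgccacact
Heph intron 9, chrX:96485268-96485327: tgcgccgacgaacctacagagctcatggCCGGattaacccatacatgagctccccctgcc
Tfrc coding exon 3, chr16:32614579-32614608: cattgtcatacacCCGGtttagccttgctc
Slc40a1 coding exon 7, chr1:45912354-45912383: tgtggttttatttCCGGttggaatttggtg
Ftl1 5′ UTR, chr7:45459698-45459727: ccagtcgcagcctCCGGgaccatctcctcg

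The site in intron 2 of Trf had 53 and 142 counts in aOPC against 156 and 173 in aOL (7.45, 8.29, 9.80 and 6.39 CPM), and the groups overlapped. All but 1 of the reads at this CCGG came from the plus strand, with 524 on it and 1 on the minus strand. The exon 15 site had 24, 108, 100 and 141 counts and the intron 15 site 39, 112, 82 and 98. The 3 most read sites together held 30.9 to 43.5% of the Trf reads of a library, so the signal was spread over several sites.

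The Aco1 site in intron 1 had 32 and 117 counts in aOPC against 137 and 190 in aOL (4.50, 6.83, 8.60 and 7.02 CPM). Both aOL libraries lay above aOPC, and the site did not pass the test (edgeR adjusted p = 0.787). The Slc11a2 site had 54, 85, 75 and 128 counts (7.59, 4.96, 4.71 and 4.73 CPM), the highest in aOPC replicate 2. The Heph site had 7, 19, 39 and 66 counts, at 0.984 and 1.11 CPM in aOPC and at 2.45 and 2.44 in aOL. Its groups did not overlap, but it did not pass the test (edgeR adjusted p = 0.264). The share of all tested sites without overlap was not computed. The exon 3 site of Tfrc had 7, 43, 33 and 71 counts, and that of exon 7 of Slc40a1 had 9, 39, 39 and 56.

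Over single sites, 64 of the 265 member sites had at least 10 reads in 2 libraries, and 0 of these were called by edgeR or by DESeq2, where 2.29% of 443062 tested sites were called by edgeR. At an unadjusted p under 0.05 there were 4 member sites, 2 of them higher in aOL, against 9.75% of all tested sites. The smallest edgeR adjusted p was 0.221, at chr15:100392780 in Slc11a2, with a log2 fold change of −1.27. In fitted fold change, 33 of the 64 member sites (51.6%) were above 0, against 49.2% of all tested sites. By gene, 11 of 13 tested sites of Aco1 and 6 of 7 of Heph were above 0, 13 of the 17 tested sites of Trf were below 0, and Slc11a2 had 8 above and 11 below. Sites of one gene share their libraries and are not independent. Fth1 and Ireb2 had no site past the minimum. Without aOPC replicate 3, 6 member sites were called, 3 in Trf, 2 in Slc11a2 and 1 in Slc40a1, together with 26266 of all 389572 sites tested in that fit. The calls ran both ways, 4 lower and 2 higher in aOL, and the 2 higher ones had 0 counts in the lone aOPC library and 28 and 15 in the one left out.

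Of all 265 sites, 128 had a read in every library, 17 (6.42%) only in aOPC and 44 (16.6%) only in aOL, against 9% and 17.5% of all 1497075 sites, and 126 had fewer than 10 reads in all. Depth differed between the libraries, with 7113237 and 17121440 counts in aOPC against 15923775 and 27057859 in aOL. The groups overlapped in depth, since aOPC replicate 3 was deeper than aOL replicate 2.

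The iron responsive elements of the ferritin genes lie beside CCGG sites. The minus-strand site 5 bases past the 3′ end of the Ftl1 element had 10 and 22 counts in aOPC against 23 and 28 in aOL, and the site 66 bases past it, the most read one of the gene, had 14, 29, 35 and 37. The CCGG directly past the Fth1 element had 0, 0, 0 and 1 counts on the plus strand and 0, 2, 0 and 6 on the minus strand. At the Fth1 site, only the minus strand in aOL replicate 3 exceeded the floor of 3 counts.

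Promoter counts were low in every member, from 1 site with 2 reads in Heph, which was not tested, to 30 sites in Slc11a2 with 82 and 87 counts in aOPC against 89 and 134 in aOL. Of 8 promoters tested, 0 were called by edgeR and 0 by DESeq2, and 0 had an unadjusted edgeR p under 0.05, where 0.768% of 14579 promoters were called and 5.97% had such a p. The log2 fold changes ran from −0.49 in Fth1 to 0.24 in Ftl1, with edgeR adjusted p-values of 0.998 throughout; with library totals alone Ftl1 turned to −0.25, while the median of all promoters moved to −0.60. Trf had 29, 25, 21 and 58 promoter counts, Tfrc 7, 7, 5 and 18, Aco1 34, 18, 20 and 40, and Ireb2 38, 28, 26 and 69. Ftl1 had 46, 75, 73 and 121 and Slc40a1 45, 51, 41 and 75. The most read promoter sites were those of Ftl1 (given above), of Slc11a2, 463 bases into the gene, with 13, 20, 27 and 22 counts, and of Slc40a1, in the 5′ untranslated region, with 6, 15, 22 and 23. That of Trf lay at −507 bases from the gene start, with 10, 5, 1 and 7 counts, and the other members had at most 23 reads at a promoter site.

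In CPM, the promoters of all 9 members were highest in aOPC replicate 2, the library with the largest share of CpG island counts, as were those of 79.9% of all 14579 tested promoters. Slc11a2, for example, was at 11.5 CPM there but elsewhere at 5.08, 5.59 and 4.95, and Slc40a1, whose promoter sites lie outside CpG islands, at 6.33 against 2.98, 2.58 and 2.77. Without it 0 member promoters were called, and the log2 fold changes of Trf (0.19), Ireb2 (0.30) and Aco1 (0.31) lay above 0 and that of Ftl1 (−0.0206) below 0, each on the other side of 0 from its value with all 4 libraries. Only Slc40a1 had groups that did not overlap, with both aOL libraries below, where 27.5% of all promoters did not overlap. The scaling was computed separately in each fit, so the same 8 sites and counts of Fth1 gave −0.98 in the gene body fit and −0.49 in the promoter fit.

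The 250 bases before the start of Ftl1, the ferritin gene with the most promoter reads, are printed from the RefSeq promoter table on GRCm38, with each CCGG in capitals.
Ftl1, chr7:45459887-45460136, minus strand: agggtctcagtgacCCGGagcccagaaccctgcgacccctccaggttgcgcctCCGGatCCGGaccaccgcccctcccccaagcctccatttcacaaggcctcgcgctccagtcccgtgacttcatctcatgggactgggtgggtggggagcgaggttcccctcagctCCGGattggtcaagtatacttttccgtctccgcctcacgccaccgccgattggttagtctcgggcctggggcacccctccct

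This window holds 4 CCGG, where 47.1% of the 32851 promoter windows in the table hold at least 1 in these 250 bases and 26.5% hold 2 or more. It held 4 and 4 reads in aOPC against 1 and 14 in aOL, so aOL replicate 3 held most of the few reads, and most reads of the Ftl1 promoter column lay in the first exon.

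**Figure D5:**
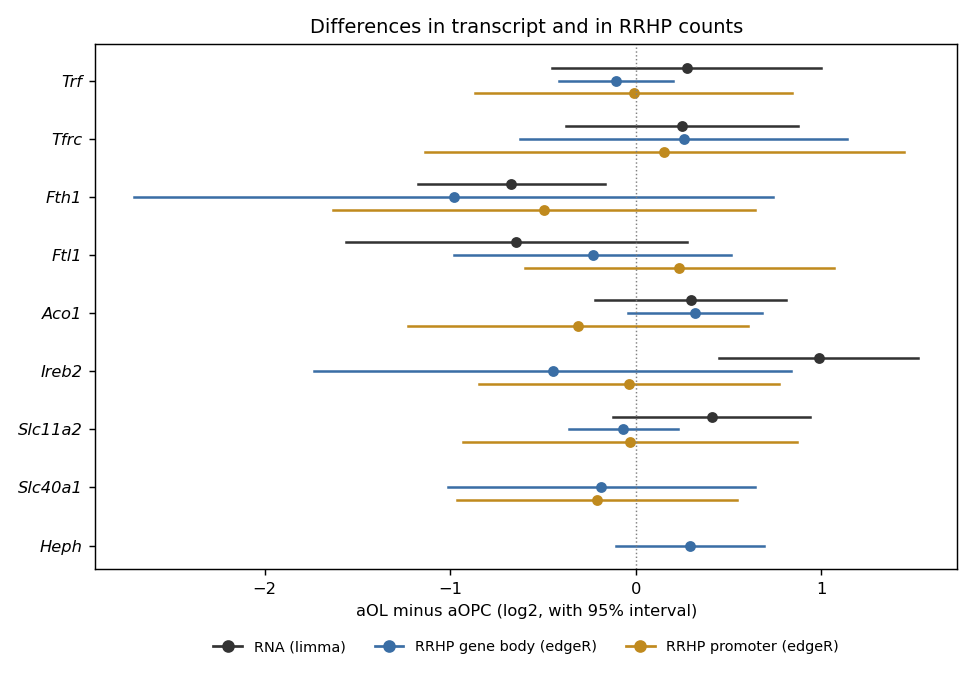
Log2 differences between aOL and aOPC (horizontal axis, points with 95% intervals) of each member in RNA, in RRHP gene body counts and in RRHP promoter counts. The RNA intervals of Ireb2 (0.45 to 1.52) and Fth1 (−1.17 to −0.17) leave out 0, without passing the adjustment, and every RRHP interval spans 0.

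Set side by side, Ireb2, with the largest RNA difference of the members (0.99 on the log2 scale), had a gene body log2 fold change of −0.45 with an interval of −1.73 to 0.84; it was 0.43 without aOPC replicate 2 and −1.03 without aOPC replicate 3. Fth1 had −0.67 in RNA and −0.98 over the gene body (−2.27 to −0.42 with 1 library left out), and Aco1 0.30 and 0.32 (0.13 to 0.60 over the gene body with 1 library left out). Trf, with the most counts, had 0.28 in RNA and −0.11 over the gene body, the latter 0.0501 without aOL replicate 3. None of these values passed its test, and the difference between the assays was not tested. DNA and RNA came from one pellet of sorted cells by the study's methods, so the assays are not independent samples of a population.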

How the data were processed

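Members were the 9 genes named above, taken by symbol. The members, the list of other iron genes, the marker lists and the tests were chosen with earlier results of these data known. The text names all members, other iron genes that were called or did not overlap with an unadjusted limma p under 0.05, each member's most read sites, and, for Trf, Tfrc and Fth1, the 3 tested genes with the smallest Euclidean distance of centred log2 values; some genes that meet this rule are not reported here.

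The deposited RNA tables give log2 values, 1 per gene symbol. The base is not named in the file headers and was inferred from the values, since 2 to the power of each value summed to the same total in every library. The authors, as their methods state, aligned reads with BWA to mm10 and counted uniquely aligned exon reads with featureCounts, with DESeq2 for normalization; the submitters' processing notes list BWA and DESeq2 1.2.5. The libraries share nearly one distribution of values (above the lower quartile they differ at any rank by at most 0.00695, and at the top 100 ranks by 0), so a gene at the top moves in rank steps and a difference common to most genes is removed. Read depth is not recoverable from these values, so no counting interval was given. Of 11315 genes, the 11133 that reached a log2 value of 5 in 2 libraries were compared with limma 3.58.1 (R 4.3.3). Calls took the study's thresholds, an unadjusted p under 0.01 and a p under 0.05 after Benjamini-Hochberg adjustment.

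The deposited RRHP values are raw counts of reads per CpG site and strand, with the authors' promoter, exon, intron and CpG island columns. Reads were aligned to mm10; the aligner of the RRHP reads is not given in the sources used here. Counts were summed per gene over promoter sites and over exon or intron sites, and compared with edgeR 4.0.16 (quasi-likelihood, TMM on library totals, filterByExpr); single sites needed 10 reads in 2 libraries. Calls were made at an adjusted p under 0.05. CPM are counts scaled to the same library total. A floor of 3 counts is 0.422, 0.175, 0.188 and 0.111 CPM in aOPC replicates 2 and 3 and aOL replicates 2 and 3; it covers counting error only, since duplicate reads could not be told apart. Positions are 1-based on GRCm38 (mm10); gene models and promoters came from RefSeq on GRCm38.p6 and untranslated regions from GENCODE vM21.

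With 2 libraries against 2, an exact two-sided permutation test of one value cannot go below a p of 0.333, so only the fits across all features gave p-values. The labels do not tie replicates to separate animals, so p-values measure the spread between these libraries, which may be technical. Alternatives were other filters, scalings and tools (DESeq2 1.42.0 for the counts), read totals from the study's methods as library sizes, a replicate block, and leaving out each library. The fits were tested on simulated data. For RNA, the simulated spread came from the aOL libraries alone, so the spread between the aOPC libraries was not covered.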

Additional observations from a re-analysis of the deposited data

How the results depend on the processing

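No member was called under any alternative that kept all 4 libraries, including DESeq2 for the counts and the replicate block. With 2 libraries against 2 the block leaves each RNA difference as it is, and changes only its error. Leaving out 1 library at a time gave 0 to 3 called members in RNA (3 without aOPC replicate 3), 0 to 1 over gene bodies and 0 to 6 sites, and the cause was not tested; the lone library of a population is then assumed to vary like the other population. RNA log2 differences ranged over these fits from 0 to 0.55 for Trf, from 0.0757 to 0.43 for Tfrc, from −1.04 to −0.25 for Ftl1 and from 0.89 to 1.085 for Ireb2, while that of Fth1 (−0.67), whose values were equal within each group, could not move.

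Counts over all features moved more. In RNA, 9 genes became 0 with no filter, 23 with a limma trend, 127 with the replicate block and 106 to 3805 without 1 library; quantile normalizing the libraries together split the calls 3 higher and 8 lower, against 1 and 8. Gene bodies went from 157 to 10 when only sites with 3 reads in every library were summed, and to 83 to 4246 without 1 library. With the stated read totals they split 53 higher and 59 lower, against 30 and 127. Promoters went from 112 to 67 with DESeq2, to 219 with no filter, to 38 with 3 reads in every library and to 66 to 1665 without 1 library. Library totals alone split them 31 and 68, against 61 and 51. Sites went from 10154 to 6651 with DESeq2, to 490 with 10 reads in every library and to 4512 to 26266 without 1 library; the stated read totals split them 6987 and 4050, against 5382 and 4772.

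Directions of several differences turned with the scaling or when 1 library was left out. Over gene bodies, leaving out 1 library gave log2 fold changes from −0.26 to 0.0501 for Trf, −0.00097 to 0.67 for Tfrc, −1.03 to 0.43 for Ireb2, −0.13 to 0.0087 for Slc11a2 and, with no change of direction, 0.13 to 0.60 for Aco1, 0.15 to 0.42 for Heph, −2.27 to −0.42 for Fth1, −0.47 to −0.00087 for Ftl1 and −0.26 to −0.0878 for Slc40a1; the stated read totals gave 0.27 for Trf, 0.17 for Ftl1, 0.0581 for Ireb2, 0.31 for Slc11a2 and 0.16 for Slc40a1. In promoters the ranges without 1 library were −0.22 to 0.19 for Trf, −0.33 to 0.41 for Tfrc, −0.0206 to 0.55 for Ftl1, −0.74 to 0.31 for Aco1, −0.27 to 0.30 for Ireb2 and −0.28 to 0.22 for Slc11a2. RLE size factors turned Trf (0.0217), Ireb2 (0.00036) and Slc11a2 (0.0071), library totals alone turned Tfrc (−0.37) and Ftl1 (−0.25), DESeq2 turned Trf (0.00997) and Slc11a2 (0.0079), and 3 reads in every library turned Slc11a2 (0.0198). The stated totals and the library totals alone shift all features (medians of 0.37 over gene bodies and −0.60 over promoters); the cause of the other turns was not tested.

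Between populations, the same replicate numbers did not mark shared animals, since the reporter lines differ, and same-numbered deviations correlated at −0.0736 in RNA and −0.0964 in RRHP. Over all 242 member values under alternatives, 210 kept their direction and side of the threshold. Fth1 and Ireb2, with at most 15 and 23 reads at a site, had the widest gene body intervals of the members; no detection limit was computed.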

Other observations

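Among the 57 tested gene bodies of the other iron genes, 1 was called, where 0.849% of all gene bodies were; 1 higher and 6 lower in aOL had an unadjusted p under 0.05, against 7.30% of all. Hamp2, a paralog of the iron hormone hepcidin, had 4 and 2 counts in aOPC against 243 and 350 in aOL, all at a single CpG site (log2 fold change 5.74, SE 0.44, 95% interval 4.76 to 6.72, edgeR adjusted p = 0.000158). In CPM it was at 0.562 and 0.117 in aOPC and at 15.3 and 12.9 in aOL, so the groups did not overlap. In RNA, Hamp2 was at log2 values of 6.63 and 7.80 in aOPC and of 6.36 and 5.89 in aOL, a difference of −1.09 (SE 0.47, limma adjusted p = 0.253). The populations came from different reporter lines, and whether the CCGG is intact in both was not tested. Of 50 tested promoters of the other iron genes, 0 were called by edgeR and 2 had an unadjusted p under 0.05, where 0.768% and 5.97% of all promoters did; the smallest adjusted p was 0.232, for Slc25a37, which imports iron into mitochondria.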
